A study of Mus musculus with 28 samples.

Results

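The Rab genes encode small GTPases that steer membrane traffic, and their transcripts were measured by RNA-seq in purified mouse sensory neurons. All genes whose symbol is Rab, a number and at most 1 letter from a to d were taken, which gave 58 of the 45952 genes listed. Levels are in FPKM, the fragments of a transcript scaled by its length and by the depth of the library. Of the 58, 52 had 1 FPKM or more in 3 or more naïve libraries from the same sex, and 46 had it in 2 or more libraries from the same sex after nerve injury. The 46 are all among the 52. Rab38, Rab42, Rab34, Rab17, Rab20 and Rab40b passed in naïve libraries alone, and Rab7b, Rab44, Rab32, Rab19, Rab25 and Rab26 passed in neither preparation. The members lie on 18 chromosomes, with 7 on chromosome 17, 6 on chromosome 9 and 4 on the X chromosome. The symbols Rab1, Rab7, Rab9 and Rab39 are those of the files and stand for the A forms of these proteins.

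Injured and naïve preparations of neurons were compared, and male with female mice within each. The SNL neurons came from 3 male and 3 female libraries of C57BL/6J mice (6 weeks to 7 months old), taken on day 8 after partial sciatic nerve ligation (SNL, labelled PSNL) from lumbar dorsal root ganglia (DRG) on the ligated side and purified with magnetic beads (MACS), with the females in estrus. The naïve neurons came from 11 male and 11 female libraries of uninjured AdvGFP mice (STOCK Tg(Avil-EGFP)QD84Gsat/Mmucd, 3 to 6 months old), which carry EGFP under the promoter of advillin, a gene of sensory neurons, and were sorted by fluorescence (FACS). Each library pooled 2 mice. The labels name erythrocytes as the contaminant of SNL libraries and satellite glial cells as that of naïve libraries. The study's methods state that the beads keep small-diameter C fibre neurons only. They also state that 2 of the naïve replicates came from trigeminal ganglia. The study counts 11 naïve replicates, as many as the libraries of each sex. Injury, strain, purification, ganglia and the making of the table therefore changed together, so that their parts in any difference between SNL and naïve libraries cannot be told apart. No uninjured MACS library was analysed here.

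Libraries had 24800048 to 50649730 input reads, of which 78.4% to 89.8% mapped uniquely. The 9 pan-neuronal markers listed summed to 4807 to 6197 FPKM in SNL libraries and 4556 to 5901 FPKM in naïve libraries. Summed satellite glial markers were at 107 to 152 FPKM in SNL libraries and 527 to 2943 FPKM in naïve libraries. In the SNL libraries much of that sum was Glul and S100b, whereas Fabp7 was at 0 to 7.73 FPKM in SNL and 274 to 1685 FPKM in naïve libraries. Summed erythroid markers were at 562 to 18900 FPKM in SNL libraries and 0.369 to 71.6 FPKM in naïve libraries. In 4 naïve libraries (male 2, male 10, female 2 and female 11) the trunk Hox genes were nearly absent. Female naïve 4 stood apart by its summed Schwann cell, fibroblast, endothelial and erythroid markers, at 1829, 307, 45.4 and 71.6 FPKM, against no more than 414, 65.3, 6.26 and 28.9 FPKM in the other naïve libraries, and it had the highest satellite glial score. The 4 naïve libraries with an RNA integrity number (RIN) under 7 or none recorded were all male. The sum of 4 Y-linked genes was at 19.7 to 55.0 FPKM in the 14 male libraries and 0 to 0.332 FPKM in the 14 female libraries.

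A Rab protein is a switch. Loaded with GTP by an exchange factor (GEF), it sits on 1 kind of membrane and recruits effectors that move, tether or fuse the vesicle. A GTPase-activating protein (GAP) then turns it off, and a GDI protein such as Gdi2 takes it back to the cytosol. In a sensory neuron, whose axon ends can lie far from the cell body, Rabs carry synaptic and peptide vesicles outwards and bring endosomes with neurotrophin receptors back.

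The same 8 Rab genes had the highest mean FPKM in both preparations. Rab3a, which acts in exocytosis of synaptic vesicles, led with 457 ± 92.9 FPKM in SNL libraries (SD, n = 6) and 511 ± 102 FPKM in naïve libraries (SD, n = 22). After it came Rab4b of the recycling endosome with 261 ± 35.4 FPKM in SNL and 247 ± 47.7 FPKM in naïve libraries, and Rab7 of the late endosome with 208 to 241 FPKM in SNL and 130 to 220 FPKM in naïve libraries. The level and rank of Rab4b are uncertain, since it shares 65.0% of its exon bases with other genes. Rab11b, Rab11a, Rab1b, Rab6b and Rab1 followed. Rab11b, a recycling Rab, ran from 169 to 312 FPKM in SNL and from 98.2 to 244 FPKM in naïve libraries, and Rab1b, which acts between ER and Golgi, from 85.4 to 195 FPKM in SNL and from 78.4 to 195 FPKM in naïve libraries. Rab1, its paralogue, ran from 100 to 160 FPKM in SNL and from 80.8 to 201 FPKM in naïve libraries. The ranges of these neighbours overlapped, so that only the place of Rab3a at the top held in every library. These 8 genes made up a median of 63.1% of the summed Rab FPKM in SNL libraries and 65.4% in naïve libraries. The sum over the 58 members was 2477 to 2893 FPKM in SNL libraries and 2063 to 2836 FPKM in naïve libraries.

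**Figure D1:**
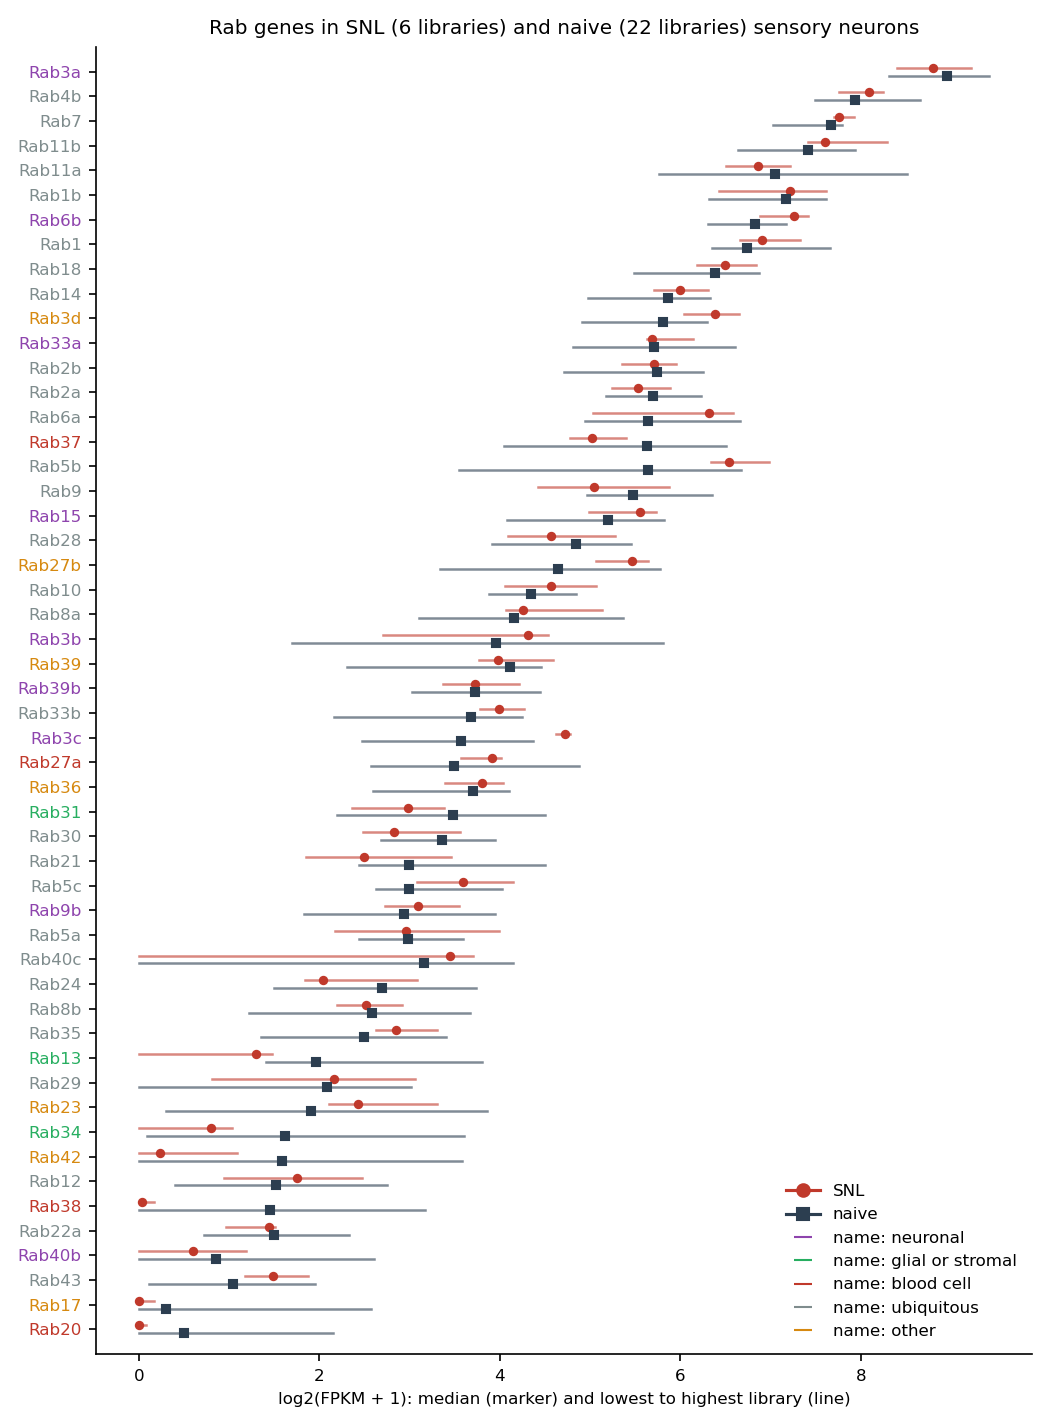
Level of the 52 Rab genes past the filter, as log2(FPKM + 1), with the median of 6 SNL (red circles) and 22 naïve libraries (dark squares) and lines that run from the lowest to the highest library. Names are coloured by cell class, and Rab3c is the gene whose 2 lines do not overlap.

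Among the Rabs of regulated secretion, Rab3c was the member with the largest difference between preparations. It lies at chr13:110054187-110280206 on the minus strand (mm10). Rab3c was at 23.7, 25.6 and 23.6 FPKM in male SNL 1 to 3 and at 25.4, 25.2 and 26.4 FPKM in female SNL 1 to 3. In the 22 naïve libraries it ran from 4.56 FPKM through a median of 10.9 FPKM to 19.6 FPKM. Every SNL library was thus above every naïve library, with a ratio of mean FPKM of 2.15 and a difference of 1.12 ± 0.06 in mean log2(FPKM + 1) (SD over 6 SNL libraries). Rab3c also varied least of all members in SNL libraries, with a coefficient of variation of 4.39%, against 35.3% in naïve libraries. The 4 naïve libraries with hardly any trunk Hox had 9.35, 7.59, 4.56 and 5.62 FPKM, all under the naïve median of 10.9 FPKM. Without them the naïve range began at 7.52 FPKM and the difference was 0.97, so that Rab3c still did not overlap but fell short of the difference of 1 asked for here.

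Rab3d, a paralogue known from secretory granules of gland and immune cells, was at 82.1 ± 14.3 FPKM in SNL and 54.1 ± 13.9 FPKM in naïve libraries, with 4 naïve libraries at or above the lowest SNL library. Rab3b spread widely, from 5.53 to 22.2 FPKM in SNL libraries and from 2.24 to 55.0 FPKM in naïve libraries. For Rab3a the SNL libraries held 337 to 595 FPKM and the naïve libraries 316 to 686 FPKM, ranges that lie almost within each other. Rab27a and Rab27b tether secretory granules at the plasma membrane. Rab27b was at 32.4 to 48.9 FPKM in SNL libraries and 9.08 to 53.8 FPKM in naïve libraries (log2 difference 0.78), with male naïve 9 as the naïve library above all SNL libraries. Rab27a was at 10.9 to 15.1 FPKM in SNL and 4.96 to 28.5 FPKM in naïve libraries. Rab37, known from mast cell granules, was at 26.5 to 41.1 FPKM in SNL and 15.5 to 89.9 FPKM in naïve libraries (difference -0.56). Rab44, a large Rab of immune cells, did not exceed 0.0674 FPKM in SNL and 0.748 FPKM in naïve libraries.

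By FPKM, Rabs between the endoplasmic reticulum (ER) and the Golgi differed little between preparations. Rab1, Rab1b, Rab2a and Rab2b, which act between the ER and the Golgi, together held a median of 366 FPKM in SNL and 352 FPKM in naïve libraries, and their differences ran from -0.13 to 0.15. Rab18 of the ER and lipid droplets was at 89.5 ± 15.1 FPKM in SNL and 83.7 ± 14.9 FPKM in naïve libraries. At the Golgi, the neuronal paralogue Rab6b was at 149 ± 17.5 FPKM in SNL and 115 ± 17.3 FPKM in naïve libraries, with 9 naïve libraries at or above the lowest SNL library. Its ubiquitous partner Rab6a was at 74.6 ± 23.5 FPKM in SNL and 51.2 ± 16.1 FPKM in naïve libraries. Rab33a was at 48.7 to 69.6 FPKM in SNL and 26.9 to 96.4 FPKM in naïve libraries. Rab33b, Rab36, Rab30 and Rab43 had means from 1.87 to 15.4 FPKM in SNL and from 1.18 to 12.3 FPKM in naïve libraries.

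On the way from the trans-Golgi network to the plasma membrane, Rab10, which serves axon growth and insulin-driven glucose transporter traffic, was at 23.3 ± 5.63 FPKM in SNL and 19.4 ± 4.02 FPKM in naïve libraries. Rab8a was at 20.7 ± 7.06 FPKM in SNL and 18.7 ± 7.55 FPKM in naïve libraries, and Rab8b was lower, at 4.84 ± 1.17 FPKM in SNL and 4.99 ± 2.68 FPKM in naïve libraries. Rab40c, which joins a ubiquitin ligase, was listed at exactly 0 in 10 libraries, 2 of them SNL and 8 naïve, and at 5.81 FPKM or more in the other 18. No library lay between, so the value of this gene is best read per library and its mean says little. Rab40b did not exceed 1.27 FPKM in SNL and 5.06 FPKM in naïve libraries.

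Recycling endosome Rabs return receptors to the surface and held a median of 26.5% of the summed Rab FPKM in SNL and 26.6% in naïve libraries. These shares include Rab4b, whose level is uncertain. Rab11a was at 90.0 to 147 FPKM in SNL libraries and 53.4 to 363 FPKM in naïve libraries. Its naïve spread rested on male 4, female 5 and male 9, at 363, 329 and 324 FPKM, while the naïve median was 131 FPKM. The first 2 of these also had the highest summed nerve injury genes of the naïve libraries (Atf3, Sprr1a, Gal and Gap43, at 7920 and 4753 FPKM), and male 9 had 569 FPKM. Whether those genes and Rab11a moved for 1 reason was not tested. Rab15, enriched in neurons, was at 30.6 to 51.9 FPKM in SNL and 15.9 to 55.3 FPKM in naïve libraries, and Rab14 was at 63.2 ± 8.72 FPKM in SNL and 57.2 ± 10.1 FPKM in naïve libraries. Rab17 and Rab25 are Rabs of polarised epithelia. Rab17 did not exceed 0.126 FPKM in SNL and 4.94 FPKM in naïve libraries, and Rab25 stayed under 1 FPKM in every library.

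Of the early endosome Rabs, Rab5b stood out. It lies at chr10:128677193-128696268 on the minus strand. Rab5b was at 125, 87.8 and 103 FPKM in male SNL 1 to 3 and at 89.5, 80.2 and 94.0 FPKM in female SNL 1 to 3. The 22 naïve libraries ran from 10.7 FPKM through a median of 48.8 FPKM to 101 FPKM. The groups overlapped through male naïve 5, at 101 FPKM, and female naïve 7, at 92.7 FPKM, while the difference of 1.05 ± 0.22 was close to that of Rab3c. It was 1.30 in males and 0.80 in females. Rab5a and Rab5c, which share with Rab5b the fusion of early endosomes, were at 8.57 ± 4.97 and 11.8 ± 3.64 FPKM in SNL libraries and at 7.15 ± 2.02 and 7.71 ± 2.37 FPKM in naïve libraries. Rab21, which carries integrins inwards, was at 5.21 ± 2.54 FPKM in SNL and 7.96 ± 4.06 FPKM in naïve libraries.

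Rab7 was the steadiest late endosome Rab. It drives the fusion of late endosomes with lysosomes and rides on signalling endosomes in axons, and it had the lowest coefficient of variation of all members in naïve libraries (10.2%) and 6.00% in SNL libraries. Rab9, which returns mannose 6-phosphate receptors to the Golgi, was at 20.4 to 57.8 FPKM in SNL and 30.3 to 80.6 FPKM in naïve libraries. Its neuronal paralogue Rab9b was at 7.91 ± 1.96 FPKM in SNL and 7.31 ± 2.58 FPKM in naïve libraries, and Rab39b, a gene of X-linked intellectual disability in humans, was at 12.8 ± 3.28 FPKM in SNL and 13.0 ± 3.20 FPKM in naïve libraries. Rab42 did not exceed 1.12 FPKM in SNL libraries, where 3 libraries were at 0, and had a median of 2.01 FPKM in naïve libraries (difference -1.27). Rab23, a brake on hedgehog signalling at the cilium, was at 3.31 to 8.91 FPKM in SNL and 0.228 to 13.5 FPKM in naïve libraries.

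**Figure D2:**
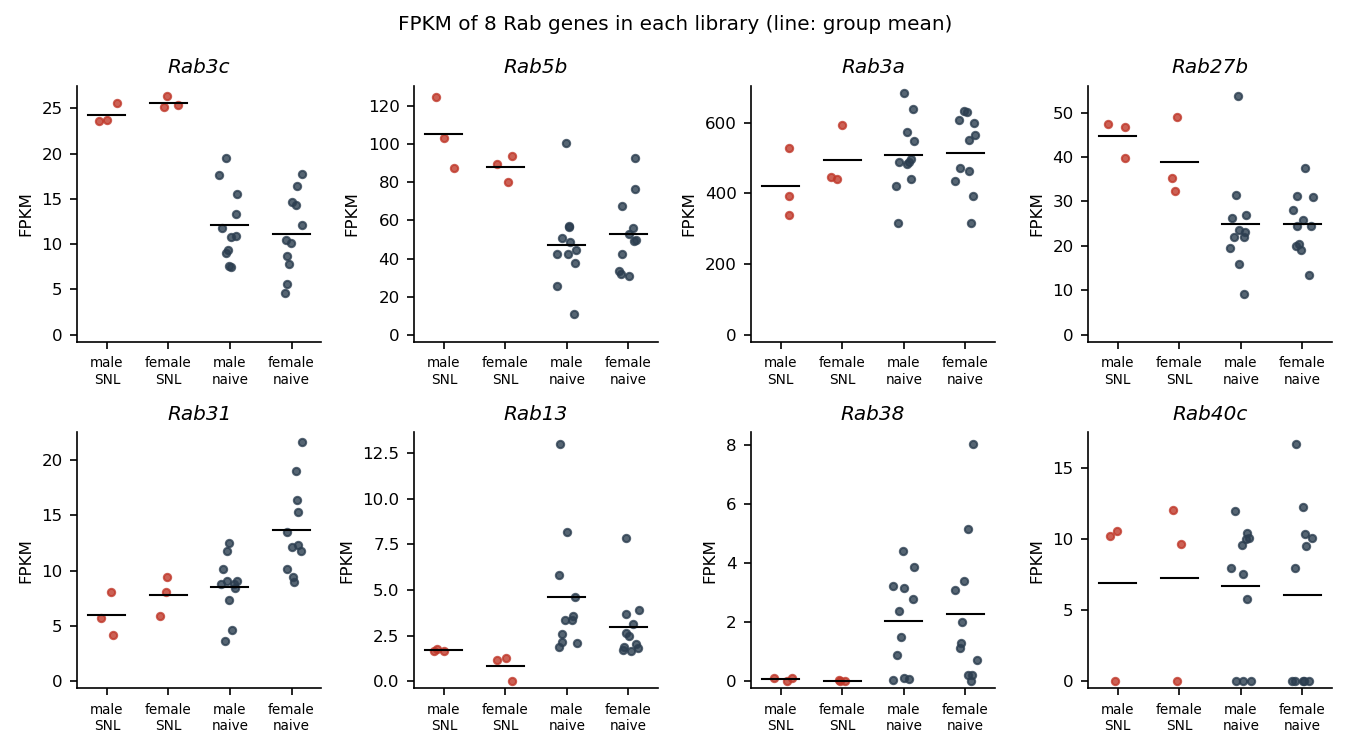
FPKM of 8 Rab genes in each library, in male SNL, female SNL, male naïve and female naïve libraries from left to right, with a line at each group mean. The SNL points of Rab3c at 23.6 to 26.4 FPKM lie above all naïve points, those of Rab38 lie near 0, and Rab40c is either at 0 or above 5.81 FPKM.

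The members were classed by the cells in which each is best known, which gave 10 neuronal, 3 glial or stromal, 7 blood cell, 29 ubiquitous and 9 other Rabs. Neuronal Rabs held a median of 28.6% of the summed Rab FPKM in SNL libraries and 29.9% in naïve libraries, and ubiquitous Rabs held 63.2% in SNL and 62.0% in naïve libraries. Glial or stromal Rabs held 0.334% in SNL and 0.619% in naïve libraries. Their shares ran from 0.246% to 0.429% in SNL and from 0.495% to 1.74% in naïve libraries, which do not overlap. Singly, none of the 3 genes was free of overlap, and Rab34 passed the filter in naïve libraries alone. How often other sums of 3 genes fail to overlap was not tested. Blood cell Rabs held 1.64% in SNL and 2.48% in naïve libraries, almost all of it Rab37 and Rab27a. The class says where a gene is best known, and which cells this RNA came from was not tested. Rab37 and Rab27a were at 10.9 FPKM or more in every SNL library, while the 4 mast cell markers summed to no more than 0.440 FPKM in SNL and 2.51 FPKM in naïve libraries, with Mcpt4 at 0 in all 28, and the 10 macrophage markers summed to 0.611 to 10.1 FPKM in SNL and 6.64 to 46.9 FPKM in naïve libraries. In naïve libraries the highest of these was Aif1, at 5.58 to 42.9 FPKM, while Csf1r did not exceed 1.02 FPKM. The 4 platelet markers summed to 0 to 4.30 FPKM in SNL and 2.96 to 14.5 FPKM in naïve libraries.

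The SNL and naïve tables were normalized separately, so their difference is a description with no test. A gene was called separated where all 6 SNL libraries lay above, or all below, the 22 naïve libraries and the difference of mean log2(FPKM + 1) was at least 1 in size. Of the 52 members past either filter 1, Rab3c, was separated upwards, and none downwards. Over all 13157 genes 0.783% were separated upwards and 1.56% downwards, so that the Rab counts lie near the background. With differences of any size allowed, the same 1 member lay above all naïve libraries and none below, beside 1.11% of all genes above and 1.72% below. Asked only to differ by 1 with overlap allowed, Rab3c and Rab5b were higher after SNL, where 3.47% of all genes were, and Rab38, Rab42 and Rab34 were lower, where 5.74% were. Without the 4 naïve libraries low in trunk Hox no member was higher by 1. Rab38, Rab42 and Rab34, with Rab40b, Rab17 and Rab20, passed the filter through naïve libraries alone, where they are high, so that their lower level in SNL libraries is largely set by the filter. Among the 46 members past both filters, 2 were higher by 1, where 3.41% of all 11039 such genes were, and 0 were lower by 1, where 3.46% were. Their median difference was 0.13, beside 0.11 over all such genes. In SNL libraries 31 were higher and 15 lower, or 67.4% higher, beside 60.3% of all such genes. Bulk libraries cannot tell fewer cells of a type from less RNA per cell.

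By class, the members past both filters had ranges that overlapped widely, apart from the glial or stromal Rabs, of which just 2 remained. These were Rab13 and Rab31, with differences of -0.999 and -0.57. The 2 blood cell Rabs, Rab37 and Rab27a, differed in sign. The 8 neuronal Rabs ran from -0.16 to 1.12 with a median of 0.17, the 29 ubiquitous Rabs from -0.51 to 1.05 with a median of 0.11, and the 5 other Rabs from 0.07 to 0.78 with a median of 0.62. None of these medians was tested, and some ubiquitous Rabs, such as Rab21 at -0.51, lay close to Rab31.

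Rab13, which builds tight junctions in epithelia, was at 1.68, 1.65 and 1.78 FPKM in male SNL 1 to 3 and at 1.17, 1.26 and 0 FPKM in female SNL 1 to 3. Naïve libraries held 1.65 to 13.0 FPKM, with a median of 2.91 FPKM and the highest value in male naïve 11. Just 2 naïve libraries were at or below the highest SNL library. Among males alone and among females alone the groups did not overlap. Of all 13157 genes, 446 in males alone and 546 in females alone had every SNL library below every naïve library. Genes below in both sexes were not counted. In males alone the ubiquitous Rab21 and Rab30 also lay below, while Rab3c and Rab6b lay above. In females alone Rab3c, Rab5c and Rab7 lay above. Rab34, a Rab of the Golgi that also serves the forming of cilia, was at 0.616, 0.934 and 1.04 FPKM in male SNL libraries and 0.883, 0 and 0 FPKM in female SNL libraries, against 0.0609 to 11.1 FPKM in naïve libraries (median 2.07 FPKM). Female naïve 4, the naïve library highest in Schwann cell, fibroblast, endothelial and erythroid markers, held that highest value. Rab31, an early endosome Rab of glia and other cells, was at 5.75, 4.16 and 8.03 FPKM in male SNL libraries and 5.89, 8.03 and 9.43 FPKM in female SNL libraries, against 3.59 to 21.6 FPKM in naïve libraries (median 10.1 FPKM), female naïve 4 again the highest. Rab40b, classed as neuronal, was also highest in that library, at 5.06 FPKM. Of the 10 satellite glial markers, 9 had a lower median in SNL than in naïve libraries and 8 did not overlap. Their part in the lower levels of Rab13, Rab34 and Rab31 was not tested. The slopes given further on concern naïve libraries alone.

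Rab38, which with Rab32 builds melanosomes and other lysosome-related organelles, was at 0.0939, 0.119 and 0 FPKM in male SNL libraries and 0.0566, 0 and 0 FPKM in female SNL libraries. Naïve libraries held 0 to 8.03 FPKM with a median of 1.75 FPKM, and 4 of the 22 were at or below the highest SNL library. The difference was -1.31, and female naïve 4 was again the highest. Rab20, an early endosome Rab of macrophages, did not exceed 0.0578 FPKM in SNL and 3.44 FPKM in naïve libraries. Rab7b did not exceed 0.142 FPKM in SNL and 3.13 FPKM in naïve libraries, and Rab32 did not exceed 0.557 FPKM in SNL and 2.95 FPKM in naïve libraries, both highest in female naïve 4. Of the 10 macrophage markers 7 had a naïve median of 0. Of the other 3, Aif1 and C1qb had a lower median in SNL than in naïve libraries, for C1qb 0.323 against 0.330 FPKM. Mrc1, Cd68, Cx3cr1, Ptprc and Tyrobp had a higher median in SNL libraries, at no more than 0.191 FPKM. The part of macrophage RNA in the levels of Rab38 and Rab20 was not tested.

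**Figure D3:**
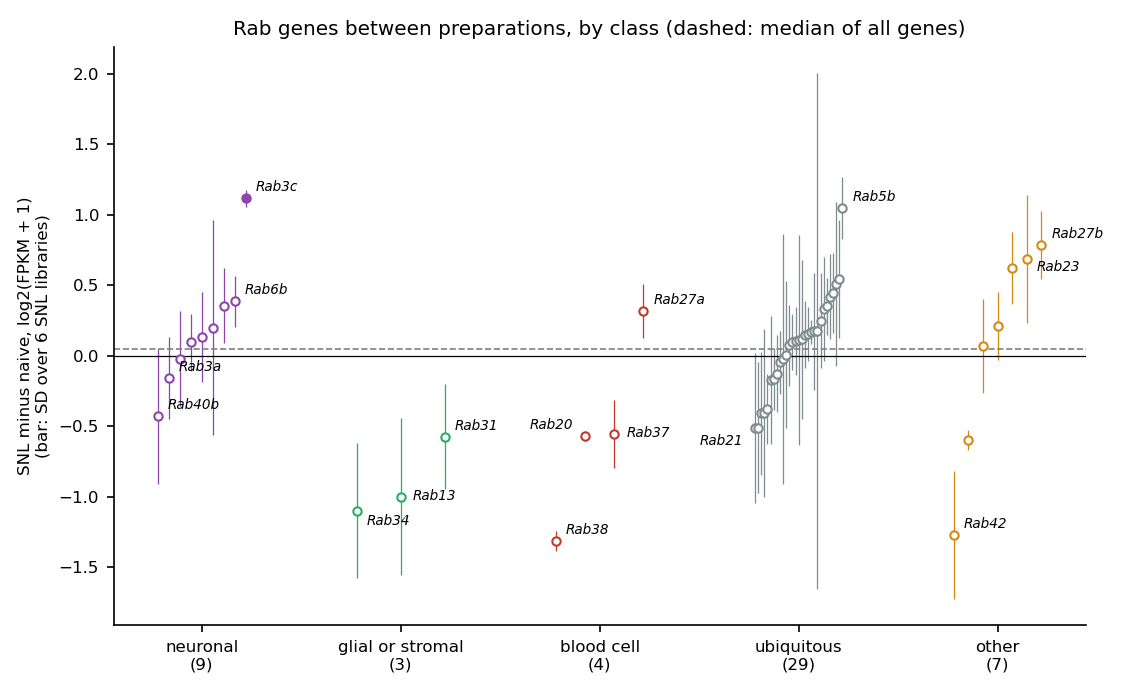
Difference of mean log2(FPKM + 1), SNL minus naïve, for the 52 Rab genes past either filter, by class, with bars for the SD over 6 SNL libraries. Rab3c (filled) is the gene with no overlap, all 3 glial or stromal Rabs lie below 0 (Rab34 passed the filter through naïve libraries alone), and the dashed line marks the median of all genes at 0.05.

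Paralogue shares are ratios within a library and so do not depend on its scale. None of the 29 shares in 13 families was free of overlap between preparations. Rab3a made up a median of 78.3% of the Rab3 family in SNL libraries and 85.9% in naïve libraries, Rab3d 14.2% in SNL and 8.48% in naïve libraries, and Rab3c 4.50% in SNL and 1.90% in naïve libraries. The Rab3c share ran from 3.42% to 5.45% in SNL and from 0.663% to 3.69% in naïve libraries, which overlap at their edge. Rab5b made up 82.0% of the Rab5 family in SNL and 75.6% in naïve libraries. In male naïve 11, where Rab5b was at its lowest, the share of Rab5c reached 42.3%. Rab11b made up 62.0% of the Rab11 pair in SNL and 52.9% in naïve libraries, and Rab27b 75.4% of the Rab27 pair in SNL and 69.4% in naïve libraries. Rab39 and Rab39b kept nearly equal medians, with Rab39 at 56.6% in both preparations.

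**Figure D4:**
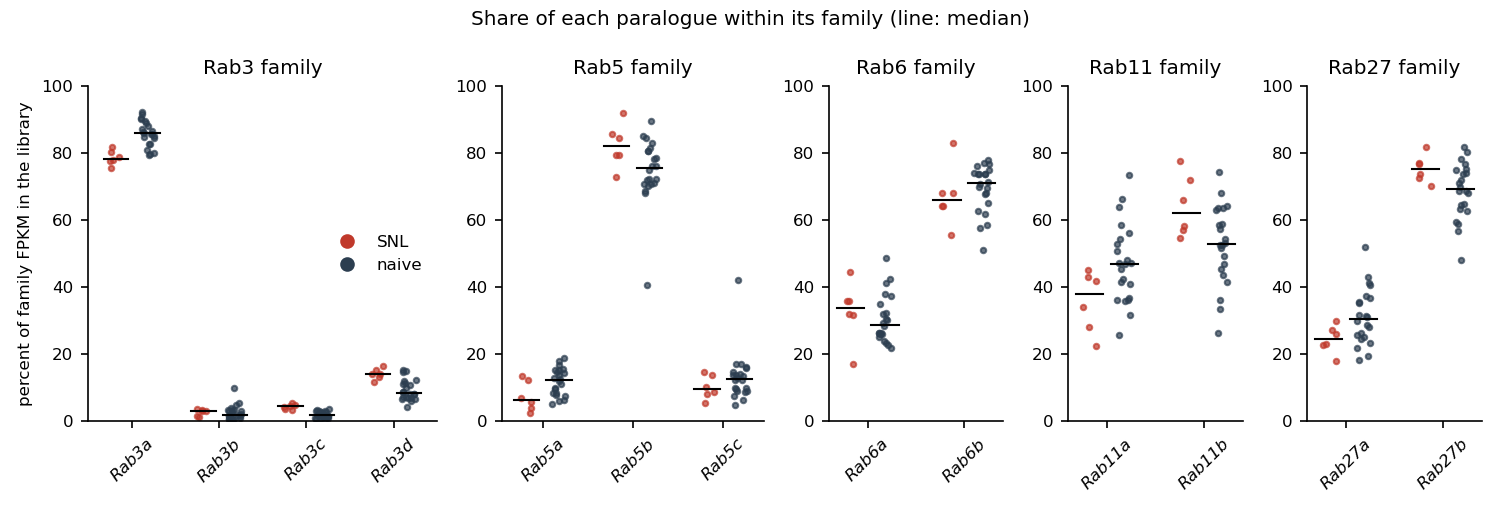
Percent of the summed FPKM of 5 Rab families held by each paralogue, 1 point per library, SNL (red) left of naïve (dark), with a line at the median. Rab3a holds a median of 78.3% of its family in SNL libraries and 85.9% in naïve libraries, and the point of Rab5c at 42.3% is male naïve 11.

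Male and female libraries were compared within each preparation by limma on log2(FPKM + 1), with p-values adjusted by Benjamini-Hochberg over all genes tested. In naïve libraries 0 of 52 members passed an adjusted p of 0.05, where 0.0543% of all 12893 genes did. At an unadjusted p under 0.05 there were 4 members, beside 8.29% of all genes. With RIN as a covariate there was 1, beside 782 of 12836 genes. The closest was Rab31, at 8.55 ± 2.66 FPKM in males and 13.7 ± 4.03 FPKM in females (SD, n = 11 each), a log2 difference of -0.64 ± 0.19 (SE; limma adjusted p = 0.575). Next in that direction were Rab36 at -0.44 ± 0.17 and Rab8b at -0.44 ± 0.26. In the other direction Rab2a was at 56.4 ± 10.5 FPKM in males and 46.7 ± 7.44 FPKM in females, and the differences of Rab2a, Rab1 and Rab30 were 0.26 ± 0.12, 0.25 ± 0.12 and 0.29 ± 0.15. The 4 X-linked members, Rab9, Rab33a, Rab9b and Rab39b, differed by 0.25 ± 0.16, 0.20 ± 0.17, -0.09 ± 0.20 and -0.19 ± 0.15, and none passed. Rab3a differed by -0.02 ± 0.14.

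After SNL 0 of 46 members passed, where 0.0442% of all 11303 genes did, and 1 member was under an unadjusted p of 0.05, beside 3.69% of all genes. That member was Rab5a, at 3.51, 7.15 and 4.84 FPKM in males and 6.38, 14.9 and 14.7 FPKM in females. The sexes overlapped through female SNL 1, and the difference was -1.03 ± 0.39 (SE; limma adjusted p = 0.945). Among members lower in males, Rab1b at -0.52 ± 0.32 and Rab6a at -0.55 ± 0.35 had the next smallest p. Higher in males were Rab13 at 0.67 ± 0.38, Rab5b at 0.25 ± 0.20 and Rab27b at 0.22 ± 0.22. For the difference between preparations in the sex difference, 0 of the 46 members past both filters passed by limma, and 0% of all 11039 genes did. At an unadjusted p under 0.05 there were 2 members, beside 3.48% of all genes. These were Rab5a, with a difference of differences of -0.998 ± 0.381, and Rab5c, with -0.73 ± 0.34 (limma adjusted p = 0.965 for both).

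**Figure D5:**
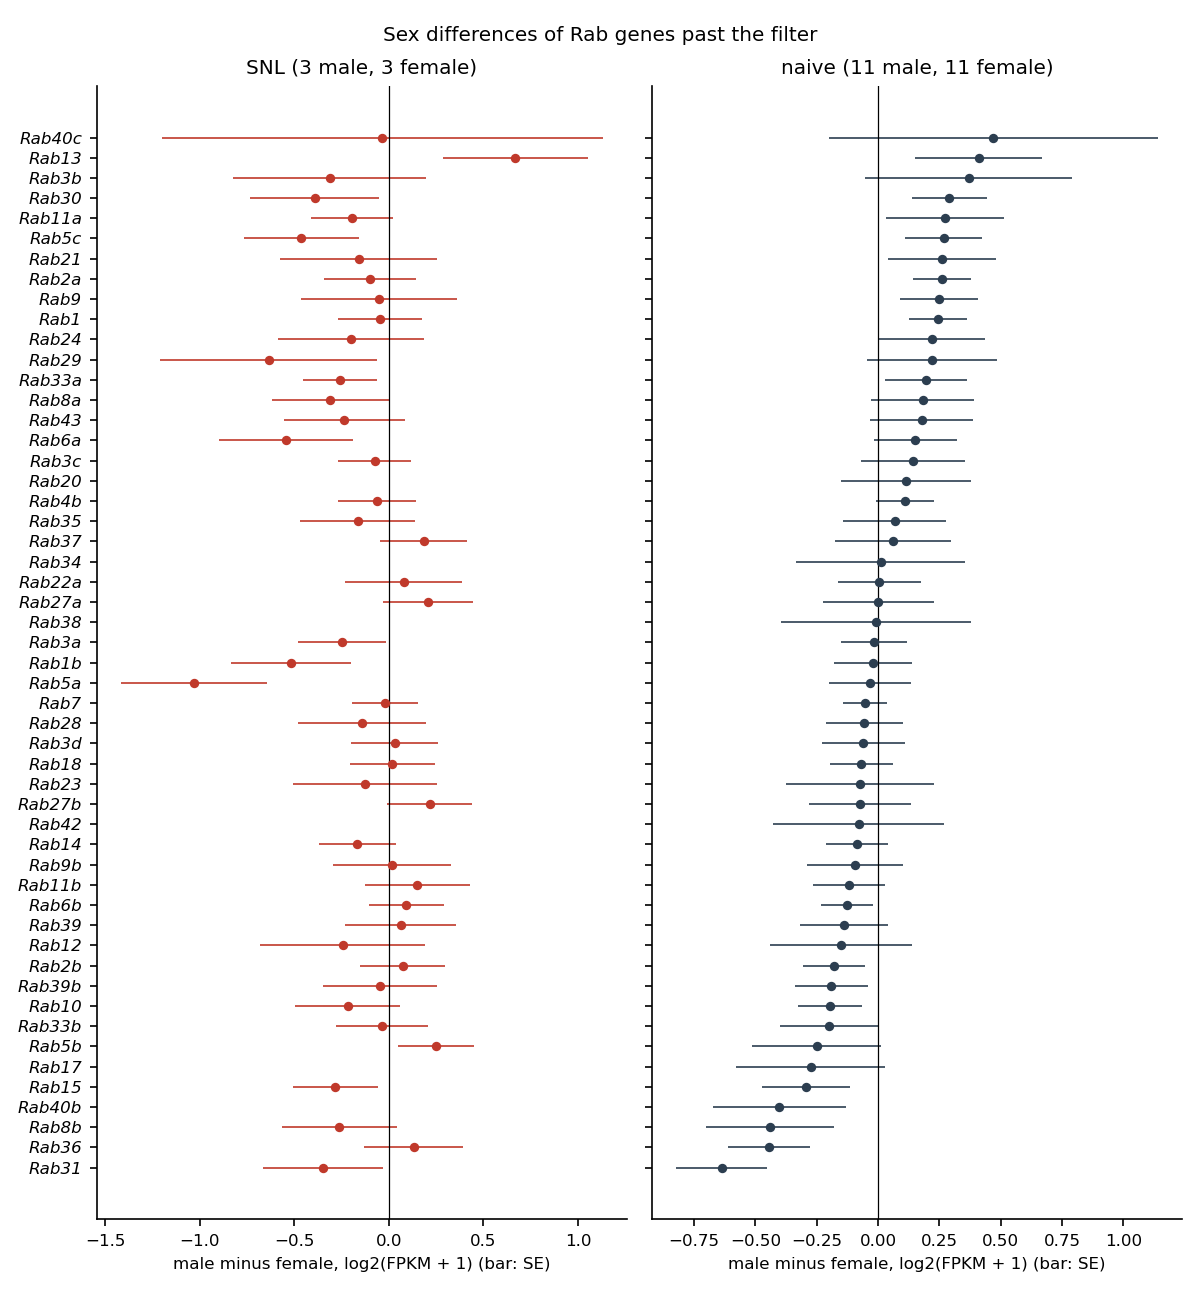
Male minus female difference in log2(FPKM + 1) with its standard error for each Rab gene past the filter, after SNL (left, 3 against 3 libraries) and in naïve neurons (right, 11 against 11). Rab5a at -1.03 lies lowest after SNL and Rab31 at -0.64 lowest in naïve neurons, and neither passed the adjusted threshold.

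Within the 22 naïve libraries each gene was also fitted against a satellite glial score, the mean log2(FPKM + 1) of 10 markers, with sex as a covariate. The score ran from 4.07 to 5.82. By limma 0 of 52 members passed an adjusted p of 0.05, where 0.396% of all 12893 genes did, and 7 members were under an unadjusted p of 0.05, beside 10.6% of all genes. Rab20, Rab24, Rab13, Rab38 and Rab34 had positive slopes of 0.96 ± 0.29, 0.72 ± 0.25, 0.80 ± 0.31, 1.12 ± 0.46 and 0.99 ± 0.42 per unit of score (SE; limma adjusted p from 0.181 to 0.375). Rab27a and Rab3d had negative slopes of -0.71 ± 0.26 and -0.43 ± 0.21. Rab31 had a slope of 0.38 ± 0.24, and Rab3a and Rab3c had slopes of 0.13 ± 0.18 and 0.18 ± 0.28. Without female naïve 4, a setting chosen after seeing the data, 4 members were under an unadjusted p of 0.05, 1 with a positive and 3 with a negative slope, beside 1163 of 12748 genes.

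The proteins that load, unload and read Rabs were counted from 4 lists. None of their genes passed in the sex comparisons, in the difference between them or in the glial slope. Of 8 escort and prenylation genes all passed the naïve filter. Gdi2, which takes Rabs off membranes, was at 272 ± 25.4 FPKM in SNL and 238 ± 38.4 FPKM in naïve libraries. Rabac1, a Rab acceptor, was at 675 ± 68.2 FPKM in SNL and 690 ± 196 FPKM in naïve libraries. Of 34 GEF genes 26 passed either filter, led in naïve libraries by Ankrd27 (a GEF of Rab21 that also binds Rab32 and Rab38), Rabgef1 and Sbf1, at 27.1, 20.9 and 20.1 FPKM in SNL and 19.4, 18.7 and 18.4 FPKM in naïve libraries. Of 37 GAP genes 33 passed, and 1 was separated upwards, beside the 0.783% of all genes. It was Tbc1d1, known for its part in glucose transporter traffic in muscle, at 4.44 to 10.5 FPKM in SNL and 1.58 to 4.38 FPKM in naïve libraries (difference 1.05). Of 48 effector genes 37 passed, led by Anxa2, Mical1 and Rph3a. Rph3a, the rabphilin that binds Rab3a, was at 45.8 ± 8.08 FPKM in SNL and 45.4 ± 12.3 FPKM in naïve libraries.

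Exons of 20 of the 58 members overlap those of another gene, 4 of them over more than 50% of their bases, and the library kit does not mark strand. Rab4b shares 65.0% of its exon bases with Gm21983 on the same strand, Rab43 75.4% with Gm45140 on the same strand, Rab2b 64.0% with the antisense Tox4 and Gm43766, and Rab24 62.4% with the antisense Prelid1. Levels of these 4 are uncertain. For Rab4b the mean normalized count in the authors' tables was 251 over SNL libraries and 3.21 over naïve libraries, while its median FPKM was 270 over SNL and 243 over naïve libraries. For Rab2b it was 742 over SNL libraries and 1712 over naïve libraries. Rab26, known from secretory vesicles, was listed at 0 FPKM in all 28 libraries, and its authors' mean normalized count was 7.38 over SNL and 13.5 over naïve libraries. For Rab3c the authors' means, 5896 over SNL and 972 over naïve libraries, gave a log2 difference of 1.204 once both tables were brought to 1 median, and for Rab5b they gave 0.92. On the same scale Rab4b differed by 4.51 and Rab2b by -2.602, against 0.10 and -0.05 by FPKM. Members that share few exon bases could change sign too. Rab11a was at 0.10 from the counts and -0.38 by FPKM, and Rab7 at -0.14 and 0.17.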

How the data were processed

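Purified neurons of 28 libraries were sequenced with 75-base unstranded reads (SMARTer Ultra Low Input kit). The authors aligned reads to mm10 with STAR, kept unique matches, and deposited FPKM from Cufflinks. The authors also deposited tables from DESeq2 on htseq counts, of which only the mean normalized count was used, as a signal pooled over libraries, and their fold changes and p-values were not used. RNA integrity (RIN) was taken as the score the authors deposited. The sources used here do not give versions of these tools. FPKM are not counts, so no count model was fitted and no counting error is given. No source used here names the naïve libraries that came from trigeminal ganglia. The 4 naïve libraries low in trunk Hox were 2 male and 2 female, and whether they were the trigeminal ones was not tested.

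Genes were filtered at an FPKM of 1 (in 3 naïve or 2 SNL libraries of 1 sex), and log2(FPKM + 1) was fitted with limma 3.58.1 (R 4.3.3) with an intensity trend. Fits were also run on simulated data, with changes put into better expressed genes alone, so low members such as Rab38 were not covered. No result given here rests on those runs. The genes named are the 8 highest, those with the 3 smallest p in each direction, those that did not overlap between preparations, and the neuronal, glial and blood cell members. Others were chosen after their values were seen. Members and lists were chosen with earlier results of these data known. Coordinates are 1-based, with 1 added to the file's start, since 47 of 58 starts equalled those of GENCODE M21 counting from 0. Replicates are separate pools of mice. Some genes of the marker and regulator lists are not reported here by name.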

Additional observations from a re-analysis of the deposited data

How the results depend on the processing

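No Rab gene passed an adjusted p of 0.05 in the sex comparisons, their difference or the glial slope under any of the 11, 14, 12 and 14 alternatives run (limma), with lowest adjusted p of 0.535 in naïve neurons, 0.371 after SNL, 0.596 for the difference and 0.125 for the slope. With the replicate number as a block 0 Rab genes passed in naïve neurons and 0 after SNL. The numbers did not pair the libraries, since same-numbered male and female libraries correlated over 0.1 in 1 of 11 naïve and 2 of 3 SNL pairs, and 1 male library in each preparation correlated best with its own number. Over all genes the count past the threshold ran from 0 to 13 after SNL and from 0 to 89 for the slope, which gave 0 in males alone and without the 2 libraries farthest from the median score (female naïve 4 and male naïve 4), and 7 without female naïve 4, a setting chosen after seeing the data.

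Between preparations 1 Rab gene was separated under most settings, 2 in female libraries alone (Rab3c and Rab13) and 0 without the 4 naïve libraries with low trunk Hox. In female libraries alone 203 of all 13157 genes were separated upwards and 386 downwards, beside 103 and 205 in the main setting. The second Rab gene there thus came with a higher background. Leaving out 1 SNL library left 1 Rab gene separated each time. So did taking genes past both filters or leaving out female naïve 4 (both chosen after seeing the data). The median difference of the Rab genes, 0.10, moved by less than the spread between SNL libraries (0.12) under every alternative, from 0.0069 in males alone to 0.16 in females alone, and was 0.02 to 0.14 with 1 SNL library left out. Its place against all genes turned, with 0.0069 beside 0.0269 in males alone, 0.0211 beside 0.0270 without female SNL 2, and 0.0144 beside 0.0406 from the authors' mean counts. Members higher by 1 numbered 0 to 2, with 1 after median-of-ratios scaling, in females alone and without male SNL 1. Over all genes the share higher by 1 ran from 2.88% to 7.77%. Members lower by 1 numbered 0 to 7, with 7 at a pseudocount of 0.1, where 11.5% of all genes were lower by 1. A pseudocount of 0.1 moved the differences of low genes, as of Rab38 to -3.19 and Rab34 to -2.16. Of 52 members 13 had opposite signs in males alone and females alone, such as Rab5a (-0.39 and 0.61) and Rab29 (-0.45 and 0.40). With 3 libraries a sex after SNL, small sex differences were not detectable.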
